A study of Homo sapiens with 6 samples.

Results

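A set of 9 well-known target genes of the transcription factor p53 were followed in Eso26 and OE33, established human cell lines of esophageal adenocarcinoma. The genes were CDKN1A, MDM2, TP53INP1, GDF15, SESN1, FAS, BBC3, BAX and ZMAT3, chosen by symbol from the count tables, in which each of the 9 had 1 row, among 37493 gene identifiers. RNA was sequenced from 4 samples: Eso26 transfected with an siRNA against PPARG (siPPARG), Eso26 transfected with a non-silencing siRNA (control), OE33 with siPPARG and OE33 control. All 4 had the same lipid transfection reagent, and the growth medium was RPMI-1640 for Eso26 and DMEM for OE33, so medium and line cannot be told apart. PPARG, a nuclear receptor that drives lipid genes, is placed by the study's title in a regulatory loop with master transcription factors and fatty acid synthesis.

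p53 is a DNA-binding tumour suppressor that is kept scarce by MDM2, a ubiquitin ligase which is itself a p53 target, so that the pair form a feedback loop. DNA damage and other stresses stabilise the p53 protein, which then activates genes for cell cycle arrest, apoptosis, repair and metabolism. Its activity is set largely at the protein level, which RNA counts do not measure. Several p53 targets, among them CDKN1A, GDF15 and BBC3, are also induced by other stress and growth signals.

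p53 binds a sequence of 20 bases made of 2 adjoining half-sites of 10 bases, each with the core CNNG. RefSeq promoter windows (GRCh38.p14, 250 bases before to 50 bases after a start site) were searched for the p53 consensus with both cores intact and at most 3 other mismatches; the consensus reads alike on both strands. Windows were at hand for 8 of the 9 genes, all but TP53INP1. A match was found for 4 of these 8 genes (MDM2, FAS, SESN1 and GDF15), or in 5 of their 16 windows, while 392 of all 35116 windows (1.12%) held one. The matches are shown so that the letters resembling the p53 motif can be read in place; a match is a description of sequence, and no binding of p53 was measured. Capitals mark the best match in the 250 bases before the start site for MDM2 (chr12:68808767-68809016, + strand), FAS (chr10:88991181-88991430, + strand) and SESN1 (chr6:109008989-109009238, − strand), and for GDF15 the match alone is given (chr19:18386186-18386205, + strand).
MDM2: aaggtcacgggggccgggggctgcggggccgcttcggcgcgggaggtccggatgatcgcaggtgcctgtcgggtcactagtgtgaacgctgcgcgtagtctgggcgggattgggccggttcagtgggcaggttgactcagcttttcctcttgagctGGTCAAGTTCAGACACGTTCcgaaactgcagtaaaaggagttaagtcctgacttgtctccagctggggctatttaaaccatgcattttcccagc
FAS: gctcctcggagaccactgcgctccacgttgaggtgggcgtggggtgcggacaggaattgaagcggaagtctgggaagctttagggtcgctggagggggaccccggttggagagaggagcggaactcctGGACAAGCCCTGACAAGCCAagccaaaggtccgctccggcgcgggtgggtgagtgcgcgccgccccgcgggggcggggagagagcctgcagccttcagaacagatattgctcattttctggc
SESN1: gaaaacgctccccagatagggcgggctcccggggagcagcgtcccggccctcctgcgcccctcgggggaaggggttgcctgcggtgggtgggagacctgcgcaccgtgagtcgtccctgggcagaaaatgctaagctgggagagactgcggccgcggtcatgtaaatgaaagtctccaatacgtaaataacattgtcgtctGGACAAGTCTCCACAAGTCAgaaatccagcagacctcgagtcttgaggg
GDF15: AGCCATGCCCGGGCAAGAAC
With the start site counted as 0, the match lay from -94 to -75 in the MDM2 window, with 2 mismatches, and from -122 to -103 in the FAS window, with 2. It lay from -49 to -30 in the SESN1 window and from 28 to 47 in the GDF15 window, each with 3 mismatches. The match lay in the windows of the 2 downstream start sites of MDM2, of which 1 is shown, and MDM2 is known to have an internal promoter that p53 drives. The windows of CDKN1A, BBC3, BAX and ZMAT3 held no match of this kind.

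The libraries held 16866996 to 23019840 counts. Levels are given as CPM, a gene's count relative to its library's total, scaled with TMM factors that correct for composition and ran from 0.970 to 1.04. Each condition had 1 library, so no test within a line is possible. The 95% intervals given reflect counting error and hold nothing of the variation from one culture to the next. A gene was kept in a comparison if it reached 5 CPM in at least 1 of its libraries. PPARG, the check of the knockdown, had 17.8 CPM in OE33 siPPARG against 130.0 CPM in the OE33 control, but 9.41 CPM in Eso26 siPPARG against 11.2 CPM in the Eso26 control. The Eso26 ratio of 0.843 had an interval of 0.698 to 1.02, so Eso26 directions are those of the library that carries the siPPARG label. PPARG was 7.32-fold lower in OE33 siPPARG (interval 6.50 to 8.27). Epithelial markers summed to 4563 CPM in Eso26 siPPARG, 4784 in the Eso26 control, 8544 in OE33 siPPARG and 8767 in the OE33 control, with 0 of 5 markers at 0 in any library. The 5 mesenchymal markers summed to between 4.28 and 8.20 CPM and the 5 immune markers to between 5.79 and 25.3 CPM. CD3E was at 0 in all 4 libraries and COL1A2 in all but the OE33 control, which had 1 count. COL1A1, at 3.6 to 6.3 CPM, made most of the mesenchymal sum in every library. LYZ made most of the immune sum in Eso26, at 24.7 CPM in Eso26 siPPARG and 24.6 CPM in the Eso26 control. CD14 made most of it in OE33, at 5.3 CPM in OE33 siPPARG and 5.0 CPM in the OE33 control. In such bulk RNA, fewer cells that express a gene and less of its RNA per cell cannot be told apart.

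Within each line, the p53 targets did not all differ in the same direction after siPPARG. In OE33 siPPARG, CDKN1A, GDF15, BBC3 and BAX were higher than in the control, while ZMAT3 and MDM2 were lower. In Eso26 siPPARG, TP53INP1 was higher, GDF15 and ZMAT3 were lower, and the arrest gene CDKN1A was nearly level. Between the controls, BAX, FAS, GDF15, CDKN1A, BBC3 and TP53INP1 stood 2.87-fold to 26.2-fold higher in OE33 than in Eso26, and SESN1 stood 17.0-fold lower. The TP53INP1 gap rests on the low Eso26 control, since OE33 siPPARG had 7.61 CPM and Eso26 siPPARG 6.93 CPM.

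**Figure D1:**
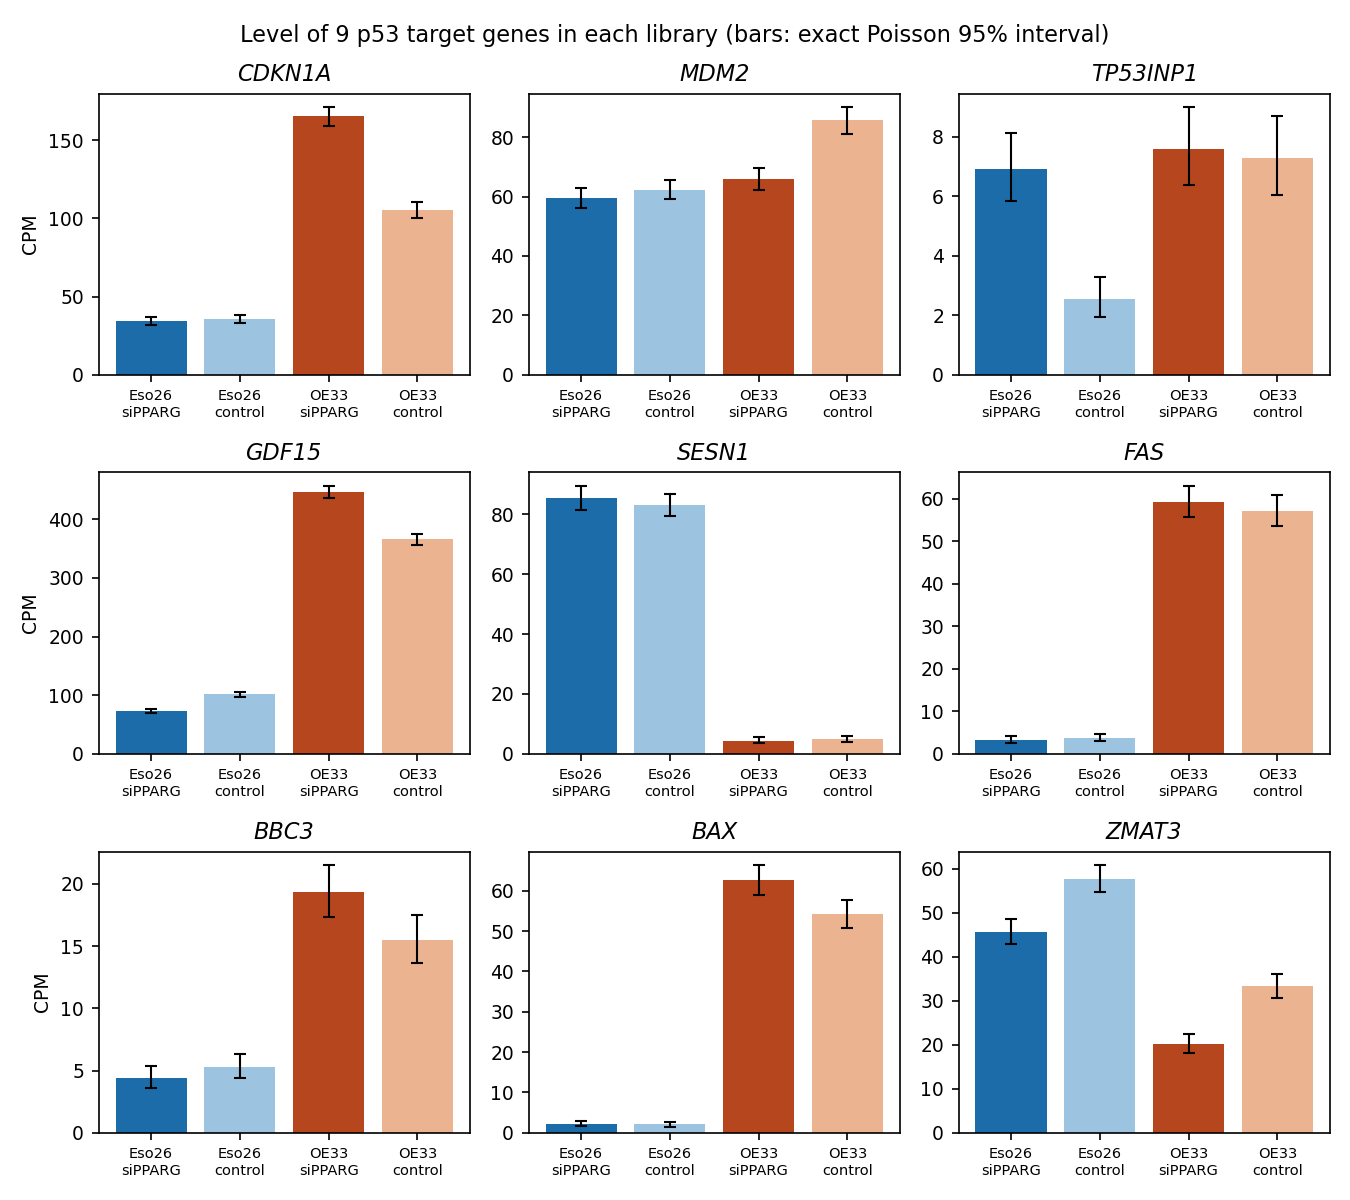
Level of each of the 9 p53 target genes in CPM (vertical axes, from 0, with a scale of their own) in the 4 libraries (Eso26 siPPARG, Eso26 control, OE33 siPPARG, OE33 control); error bars are exact Poisson 95% intervals of 1 library each. BAX and FAS stand above 54 CPM in both OE33 libraries and below 4 CPM in both Eso26 libraries, SESN1 shows the opposite order, and TP53INP1 is low in the Eso26 control alone.

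CDKN1A encodes p21, the inhibitor of cyclin-dependent kinases that carries out much of the arrest downstream of p53. It had 2909 counts (165 CPM) in OE33 siPPARG against 1742 counts (105 CPM) in the OE33 control, and 738 counts (34.6 CPM) in Eso26 siPPARG against 826 counts (35.6 CPM) in the Eso26 control. Both OE33 libraries stood above both Eso26 libraries, and OE33 siPPARG was the highest of the 4. In OE33 the ratio of siPPARG to control was 1.57 (interval 1.48 to 1.67), a log2 fold of 0.65, which placed CDKN1A at rank 286 from the highest of 10550 genes kept. In Eso26 the ratio was 0.971 (interval 0.878 to 1.07).

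The cell cycle genes that p21 is known to shut down through the DREAM repressor complex were lower in OE33 siPPARG beside the higher CDKN1A. All 13 of this list, which was fixed with earlier results of these data known, had an interval below 1 there, against 24.5% of all genes, and their median log2 fold was -0.39 against 0.0024 for all genes. PLK1, a mitotic kinase, stood at 0.706 times the control in OE33 (interval 0.670 to 0.744), with log2 folds of -0.49 for CDC20 and -0.44 for BUB1. In Eso26, where the CDKN1A interval included 1, 10 of the 13 stood above the control and 3 below, with a median log2 fold of 0.035. Intervals lay above 1 there for 4 of the 13 and below 1 for 2, against 23.6% and 29.6% of all genes. With library totals in place of TMM the interval counts were 8 and 1. Whether the higher CDKN1A has a part in the lower cell cycle genes was not tested.

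MDM2 had 1160 counts (65.8 CPM) in OE33 siPPARG against 1420 counts (85.6 CPM) in the OE33 control, and 1268 counts (59.4 CPM) in Eso26 siPPARG against 1447 counts (62.4 CPM) in the Eso26 control. The level was lower in OE33 siPPARG by a ratio of 0.769 (interval 0.711 to 0.832), and the Eso26 interval of 0.883 to 1.03 included no change. CDKN1A and MDM2, both direct targets, therefore had ratios on opposite sides of 1 in OE33. Between the lines MDM2 differed least of the 9, with the OE33 control at 1.37 times the Eso26 control (interval 1.28 to 1.48).

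Of the genes that act in cell death, BAX showed the widest gap between the lines. BAX encodes the pore-forming protein that opens the outer mitochondrial membrane in apoptosis. It had 1103 counts (62.6 CPM) in OE33 siPPARG against 898 counts (54.1 CPM) in the OE33 control, and 47 counts (2.20 CPM) in Eso26 siPPARG against 48 counts (2.07 CPM) in the Eso26 control. Both Eso26 libraries were far below both OE33 libraries. The OE33 control stood 26.2-fold above the Eso26 control (interval 19.6 to 35.8). After siPPARG the OE33 ratio was 1.16 (interval 1.06 to 1.26); in Eso26 the gene was under the filter of 5 CPM, and its ratio of 1.06 had an interval of 0.696 to 1.63.

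FAS, the death receptor for FAS ligand, followed the same order. It had 1045 counts (59.3 CPM) in OE33 siPPARG against 947 counts (57.1 CPM) in the OE33 control, and 70 counts (3.28 CPM) in Eso26 siPPARG against 87 counts (3.75 CPM) in the Eso26 control. The 2 libraries of each line lay close together and far from those of the other. The OE33 control was 15.2-fold above the Eso26 control (interval 12.2 to 19.2). Neither knockdown ratio left its counting interval around 1, at 1.04 (interval 0.950 to 1.14) in OE33 and 0.875 (interval 0.629 to 1.21) in Eso26, where FAS was under the filter.

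BBC3 encodes PUMA, a BH3-only protein that triggers BAX. It had 341 counts (19.4 CPM) in OE33 siPPARG against 257 counts (15.5 CPM) in the OE33 control, and 94 counts (4.40 CPM) in Eso26 siPPARG against 123 counts (5.30 CPM) in the Eso26 control. The siPPARG library was the higher of the pair in OE33 and the lower in Eso26. In Eso26 BBC3 passed the filter through the control alone, so a difference there was built into its being kept. The ratio was 1.25 in OE33 (interval 1.06 to 1.47) and 0.831 in Eso26 (interval 0.628 to 1.10), and only the first interval lay clear of 1. Between the controls, OE33 stood 2.92-fold above Eso26 (interval 2.35 to 3.65).

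TP53INP1 encodes a stress protein that takes part in apoptosis and autophagy. It had 134 counts (7.61 CPM) in OE33 siPPARG against 121 counts (7.30 CPM) in the OE33 control, and 148 counts (6.93 CPM) in Eso26 siPPARG against 59 counts (2.54 CPM) in the Eso26 control. The Eso26 control was low and the other 3 libraries had levels whose intervals overlap. In Eso26 the ratio was 2.73 (interval 2.0 to 3.75), the highest log2 fold (1.41) of the 10421 genes kept, and in OE33 it was 1.04 (interval 0.809 to 1.34). TP53INP1 passed the filter in Eso26 through the siPPARG library alone, so a difference there was built into its being kept. PPARG itself was not detectably lower in that library.

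SESN1, a sestrin that curbs mTORC1 signalling and limits oxidative stress, was the only one of the 9 to stand far lower in OE33. It had 77 counts (4.37 CPM) in OE33 siPPARG against 81 counts (4.88 CPM) in the OE33 control, and 1825 counts (85.5 CPM) in Eso26 siPPARG against 1927 counts (83.0 CPM) in the Eso26 control. The OE33 control was at 0.0588 times the Eso26 control (interval 0.0465 to 0.0735). Neither knockdown ratio was clear of 1, at 1.03 in Eso26 (interval 0.965 to 1.10) and 0.895 in OE33 (interval 0.646 to 1.24), where SESN1 was under the filter.

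GDF15, a secreted stress cytokine of the TGF-beta superfamily, lay on opposite sides of its control in the lines. It had 7874 counts (447 CPM) in OE33 siPPARG against 6067 counts (366 CPM) in the OE33 control, and 1543 counts (72.3 CPM) in Eso26 siPPARG against 2360 counts (102 CPM) in the Eso26 control. The ratio was 1.22 in OE33 (interval 1.18 to 1.26) and 0.711 in Eso26 (interval 0.666 to 0.758). It was the only one of the 6 members kept in both lines with intervals on opposite sides of 1. Of the 9589 genes that passed the filter in both, 8.71% were likewise lower in Eso26 siPPARG and higher in OE33 siPPARG, and 14.2% lay on opposite sides in either order. The OE33 control stood 3.60-fold above the Eso26 control (interval 3.43 to 3.77).

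ZMAT3 encodes an RNA-binding zinc finger protein that acts in p53-dependent growth suppression. It had 356 counts (20.2 CPM) in OE33 siPPARG against 552 counts (33.3 CPM) in the OE33 control, and 974 counts (45.6 CPM) in Eso26 siPPARG against 1339 counts (57.7 CPM) in the Eso26 control. The siPPARG library was the lower of the pair in both lines. The ratio was 0.607 in OE33 (interval 0.530 to 0.695) and 0.791 in Eso26 (interval 0.727 to 0.859), while 9.60% of genes that passed the filter in both had an interval below 1 in each. Leaving out the 3 members not kept in both lines, none had an interval above 1 in each, where 5.58% of genes kept in both did. ZMAT3 ran against CDKN1A between the lines as well, with the OE33 control at 0.577 times the Eso26 control (interval 0.521 to 0.637).

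**Figure D2:**
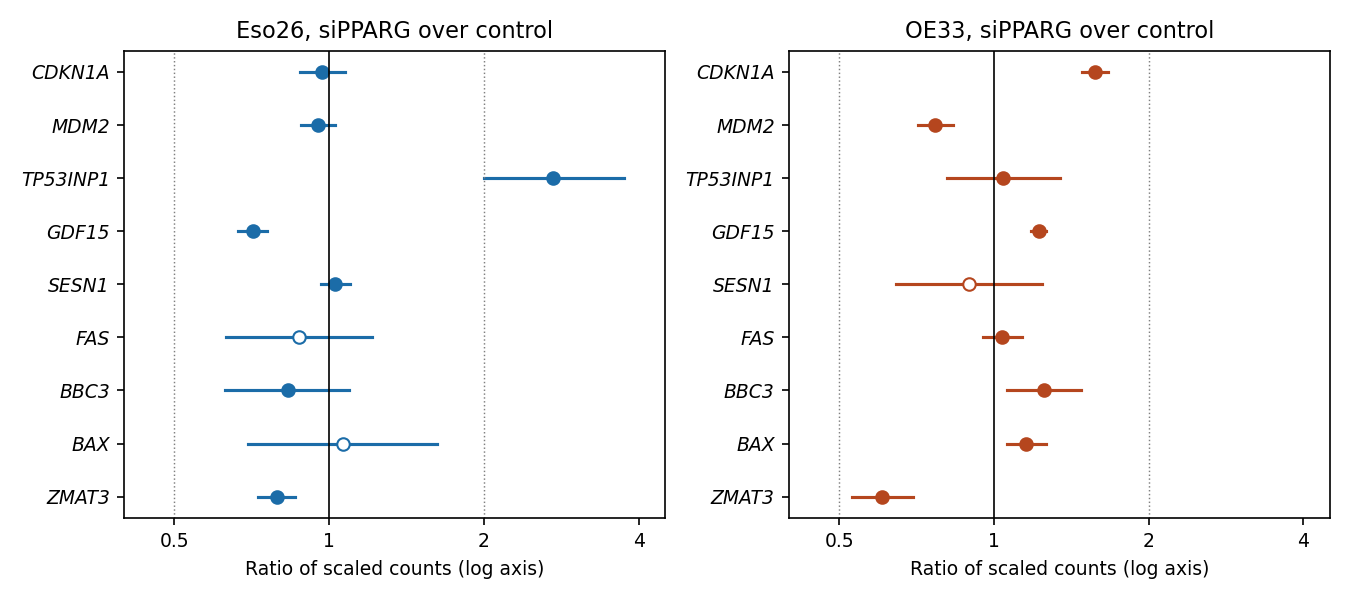
Ratio of siPPARG to control for the 9 genes in Eso26 (left) and OE33 (right), on a log axis; points are ratios of TMM-scaled counts, lines are exact 95% counting intervals, open points mark genes under 5 CPM in both libraries, and dotted lines mark 2-fold. TP53INP1 in Eso26, at 2.73, lies past 2-fold; ZMAT3 lies below 1 in both panels and GDF15 on opposite sides.

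Counted together, 8 of the 9 genes were kept in OE33 and none was past 2-fold, where 1.08% of all kept genes were higher and 0.417% lower. Past 1.5-fold there were CDKN1A above (3.39% of all genes) and ZMAT3 below (2.32%). Intervals lay above 1 for 4 members and below 1 for 2, against 26.0% and 24.5% of all genes, and the median log2 fold was 0.13 against 0.0024 for all genes. In Eso26, 7 members were kept and 1, TP53INP1, was past 2-fold and higher, against 0.0576% of all genes, and 0 were lower, against 0.144%. Over all genes these are 6 higher and 15 lower, or 8 and 10 with library totals in place of TMM. With a 1 CPM filter, 61 genes were past 2-fold and higher. Because TP53INP1 reached 5 CPM in the siPPARG library alone, a higher value there was built into its being kept, and its place in the count is a description. TP53INP1 was also the only member past 1.5-fold in Eso26, against 1.25% of genes higher and 1.14% lower. There the interval lay above 1 for 1 member and below 1 for 2, against 23.6% and 29.6% of all genes, and the median log2 fold was -0.070 against -0.0073. The 9 genes were chosen with results of these data known, so these counts describe them and are not evidence for a response of the group.

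A test of siPPARG was possible only for an effect common to both lines. The model had terms for line and siRNA and left 1 residual degree of freedom. Since nothing in the labels says whether the samples came from independent cultures, its p-values measure only the spread between these libraries. In this fit edgeR's quasi-likelihood test called none of the 9 at an adjusted p under 0.05, and 0 of 11382 genes in all (0%); 523 genes had an unadjusted p under 0.05, and DESeq2 called 13 genes, none of them among the 9, though it gave no adjusted p for TP53INP1. ZMAT3 came nearest, with a log2 fold of -0.52 (SE 0.149), lower in 2 of 2 lines, an unadjusted p of 0.015 and an edgeR adjusted p of 0.942. TP53INP1 had a log2 fold of 0.71 (SE 0.365) and CDKN1A one of 0.32 (SE 0.187), both with an edgeR adjusted p of 0.942. A response in 1 line counts as spread in this fit, and PPARG was lower beyond its counting interval in OE33 alone.

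**Figure D3:**
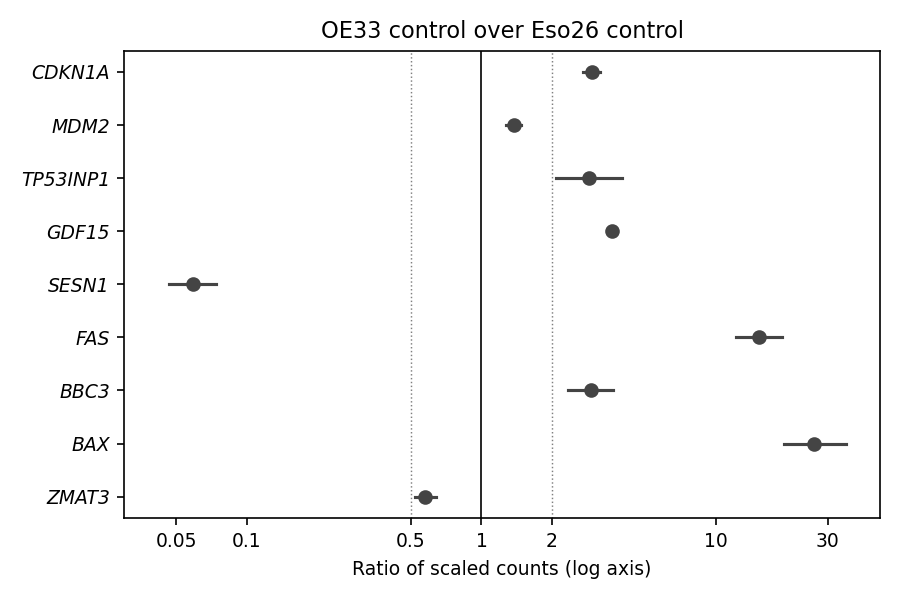
Ratio of the OE33 control to the Eso26 control for the 9 genes, on a log axis with exact 95% counting intervals; dotted lines mark 2-fold. BAX at 26.2 and FAS at 15.2 lie farthest right, SESN1 at 0.0588 farthest left, and MDM2 and ZMAT3 lie within 2-fold.

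The difference between the lines could be tested over both treatments. Between the controls, 6 of the 9 genes were past 2-fold and higher in OE33 and 1 was lower, against 21.5% and 16.3% of all 11211 kept genes. Of these, BAX, FAS and TP53INP1 passed the filter through the OE33 control alone and SESN1 through the Eso26 control alone, so a difference was built into their being kept, and the count is a description. Past 1.5-fold, 6 were higher (31.8% of all genes) and 2 lower (27.5%), and intervals lay above 1 for 7 (45.7%) and below 1 for 2 (43.7%). The median log2 fold of the 9 was 1.53, against 0.029 for all genes. In the same model, edgeR's quasi-likelihood test called 7 of the 9 for the line, 5 higher in OE33 and 2 lower, against 71.3% of all genes, 37.2% higher and 34.1% lower, so 7 calls of 9 is near the background. BAX and FAS passed the filter of this fit through the OE33 libraries alone, and SESN1 through the Eso26 libraries alone. A line difference was thus built into their being kept in the fit as well. BAX had a log2 fold of 4.77 (SE 0.165, adjusted p 1.82e-05 by edgeR), FAS one of 4.05 (SE 0.162, adjusted p 2.51e-05) and SESN1 one of -4.19 (SE 0.154, adjusted p 2.18e-05). GDF15 had 2.24 (SE 0.210), CDKN1A 1.91 (SE 0.192), BBC3 1.84 (SE 0.220) and ZMAT3 -0.98 (SE 0.150), with edgeR adjusted p-values from 0.000352 to 0.0022. MDM2 (0.30, SE 0.133, adjusted p 0.0876) and TP53INP1 (0.77, SE 0.364, adjusted p 0.107) were not called by edgeR.

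Of the 16 kept genes of p53 relatives, regulators and cofactors, 6 were higher and 10 lower after siPPARG in OE33, with a median log2 fold of -0.072. All kept genes split into 5322 higher and 5228 lower there, with a median of 0.0024. Intervals lay above 1 for 2 of the 16 and below 1 for 6, against 26.0% and 24.5% of all genes. HIPK2, a kinase that phosphorylates p53, was the lowest, at 0.516 times the control in OE33 (interval 0.469 to 0.567) and 0.784 in Eso26 (interval 0.728 to 0.845). CHEK2, the checkpoint kinase of the DNA damage response, stood at 0.719 in OE33 (interval 0.629 to 0.823), and MDM4, the relative of MDM2, at 0.791 in Eso26 (interval 0.700 to 0.893). In Eso26 6 of these 16 stood above the control and 10 below (8 and 8 with library totals in place of TMM), where all kept genes split into 5068 and 5353. Intervals lay above 1 for 4 of the 16 and below 1 for 8, against 23.6% and 29.6% of all genes.

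Among 34 other p53 targets in 3 lists by role, small differences went both ways. In OE33, 21 of the 33 kept were higher and 12 lower (20 and 13 with library totals, where ISCU turned), with 12 intervals above 1 and 4 below, against 26.0% and 24.5% of all genes, and a median log2 fold of 0.091. In Eso26, 14 of 30 were higher and 16 lower, or 16 and 14 with library totals, with 10 intervals above 1 and 9 below, against 23.6% and 29.6% of all genes, and a median of -0.023, or 0.022 with library totals. None was past 2-fold in either line.

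Of the arrest and feedback targets, PLK2, a polo-like kinase, was 1.51-fold higher in OE33 siPPARG (interval 1.44 to 1.59). E2F7, a repressor of cell cycle genes, stood at 0.722 times the control in OE33 (interval 0.648 to 0.804) and 0.732 in Eso26 (interval 0.647 to 0.827). SFN, which encodes the 14-3-3 sigma protein, stood at 1.20 in OE33 (interval 1.14 to 1.25) and 0.841 in Eso26 (interval 0.809 to 0.874).

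The death and survival targets included 3 receptors for the ligand TRAIL, of which TNFRSF10A and TNFRSF10B were lower in Eso26 siPPARG and higher in OE33 siPPARG, a pattern that 8.71% of genes kept in both had. TNFRSF10B was at 1.35 times the control in OE33 (interval 1.30 to 1.41) and 0.768 in Eso26 (interval 0.718 to 0.821). TNFRSF10A was at 1.29 in OE33 (interval 1.19 to 1.40) and 0.676 in Eso26 (interval 0.601 to 0.760). TNFRSF10D, a decoy receptor chosen for mention after its values were seen, had intervals that included 1, at 1.03 in OE33 (interval 0.919 to 1.15) and 0.933 in Eso26 (interval 0.816 to 1.07). TP53I3, a quinone oxidoreductase-like gene, had 144 counts in OE33 siPPARG against 84 in the OE33 control, a ratio of 1.61 (interval 1.22 to 2.14), and was at 1.33 in Eso26 (interval 1.17 to 1.52). PMAIP1, which encodes the BH3-only protein NOXA, stood at 0.693 in Eso26 (interval 0.586 to 0.818), and PIDD1 at 1.45 (interval 1.15 to 1.83).

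Of the repair and metabolism targets, RRM2B, a ribonucleotide reductase subunit, stood at 0.670 times the control in OE33 (interval 0.600 to 0.748) and at 1.26 in Eso26 (interval 1.15 to 1.39). DDB2, which recognises ultraviolet damage, was at 1.44 in Eso26 (interval 1.28 to 1.62). SUSD6 was at 1.35 in OE33 (interval 1.20 to 1.53) and 1.27 in Eso26 (interval 1.13 to 1.42).

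Between the controls, the other targets differed in both directions. PLK2 was 48.1-fold higher in the OE33 control (interval 38.0 to 61.6), while BTG2, an antiproliferative gene, was at 0.0426 times the Eso26 control (interval 0.0347 to 0.0517). PHLDA3, an inhibitor of AKT signalling, was 10.4-fold higher (interval 8.35 to 13.03) and DRAM1, an autophagy gene, 4.70-fold (interval 4.18 to 5.29). TP53I3 stood at 0.284 (interval 0.222 to 0.360) and PERP, a desmosomal protein gene, at 0.323 (interval 0.317 to 0.330). Of the 33 kept, 6 were past 2-fold higher and 7 lower, where 21.5% and 16.3% of all genes were, with a median log2 fold of 0.25. PLK2, PLK3 and PHLDA3 passed the filter through the OE33 control alone.

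**Figure D4:**
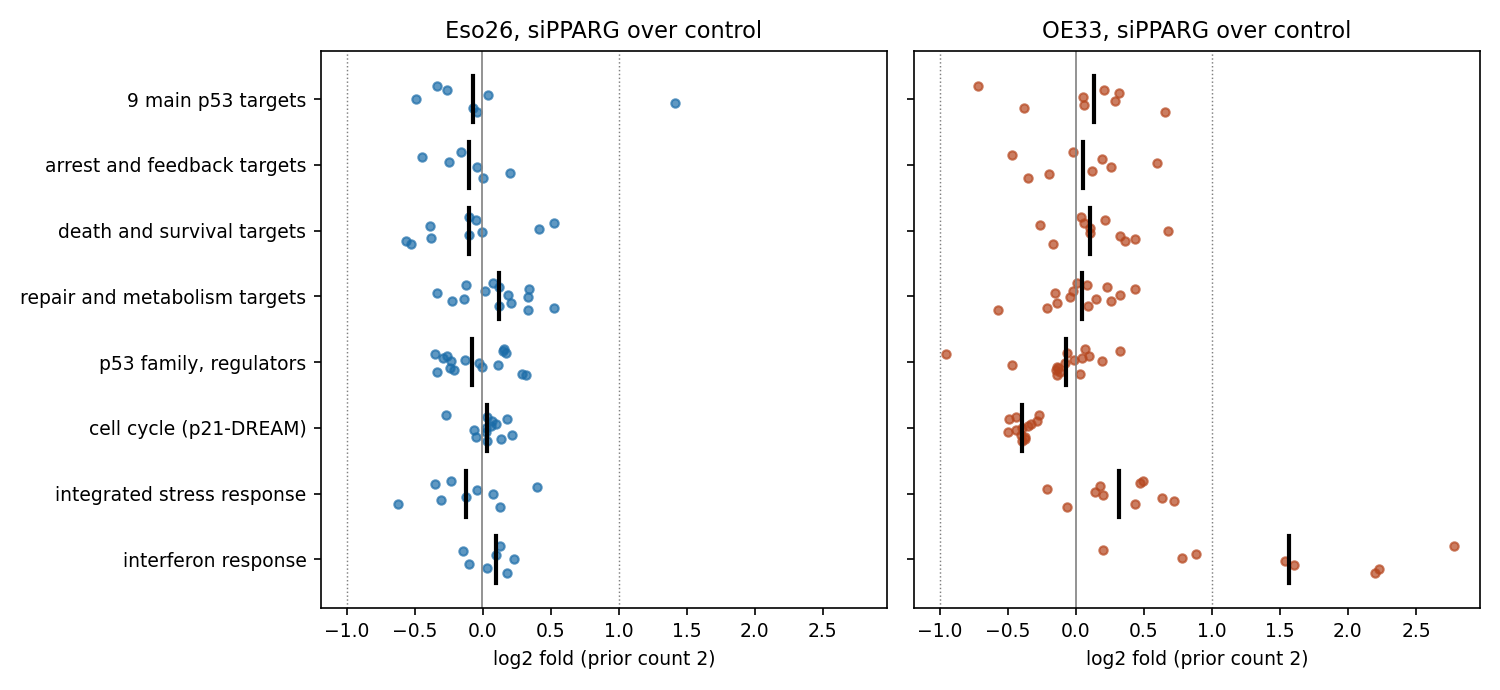
log2 folds of siPPARG over control (horizontal axes) for kept genes of the 9 main p53 targets and 7 other lists, in Eso26 (left) and OE33 (right); each point is a gene, black bars are list medians, the grey line is the median of all kept genes and dotted lines mark 2-fold. In OE33 the cell cycle list lies below 0 and the interferon list above it, with medians of -0.39 and 1.57.

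Genes of other stress programmes also differed in OE33. All 8 interferon response genes were higher in OE33 siPPARG, 5 past 2-fold, against 1.08% of all genes, with RSAD2, an antiviral enzyme gene, 6.91-fold higher (interval 6.27 to 7.62). Of the 10 genes of the integrated stress response, 8 had an interval above 1 and 2 below, against 26.0% and 24.5% of all genes, with a median log2 fold of 0.32; ATF3, a stress transcription factor, was 1.66-fold higher (interval 1.43 to 1.93) and TRIB3 1.55-fold (interval 1.47 to 1.64). In Eso26, 6 of the 9 kept integrated stress response genes were lower (5 with library totals). All kept genes split there into 5068 higher and 5353 lower. Of the 9, 3 had an interval below 1 and 2 had one above 1, against 29.6% and 23.6% of all genes. The DDIT3 ratio was 0.644 (interval 0.482 to 0.856). For the interferon list in Eso26 the median log2 fold was 0.096. In Eso26 DDIT3 passed the filter through the control alone, at 5.82 CPM against 3.75 CPM in Eso26 siPPARG. A lower siPPARG value was therefore built into its being kept. The part of the interferon and integrated stress programmes in the higher CDKN1A, GDF15 and BBC3 of OE33 was not tested. Between the controls, 7 of the 10 integrated stress response genes were past 2-fold higher in OE33, against 21.5% of all genes, with a median log2 fold of 1.94. CHAC1 of these passed the filter through the OE33 control alone, and TRIB3 was 10.2-fold higher (interval 8.92 to 11.6).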

How the data were processed

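RNA-seq was analysed in 4 libraries, 1 per line and siRNA, grouped by their titles. The authors deposited raw counts per gene, as their whole-number values show. Trim Galore, STAR, Bowtie, Picard, MACS2 and hg19 are named, without roles, per the submitters' processing notes. The sources used here do not give the counter, its strand setting or its treatment of shared reads, so reads of overlapping or antisense genes may be mixed. Triplicates are mentioned in the design text; each condition nonetheless has a single column, taken here as 1 library. The tables have 37533 rows; 40 that repeat an identifier were summed with their partner. No column belonged to other samples. The PPARG peak lists, on hg19, were not used here, for lack of an annotation of that build.

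TMM factors over all 4 libraries, log2 CPM with a prior count of 2 and a filter of 5 CPM in at least 1 of the libraries compared were used (edgeR 4.0.16, R 4.3.3). Ratios carry exact conditional binomial 95% intervals and CPM exact Poisson ones. A count of 0 allows 3 counts, or 0.129 to 0.181 CPM. The shared fit used edgeR's quasi-likelihood test with Benjamini-Hochberg adjustment over all genes kept, with DESeq2 1.42.0 and limma 3.58.1 (voom) as alternatives. The edgeR fit was tested on simulated data in which changed genes had the same fold in both lines. That setting did not try a response that differs between the lines. Standard errors are the log2 fold divided by the root of the test's F value. Named genes were the 9 members, PPARG and, of each list, the 3 largest log2 folds per comparison; the text describes most of these, and some genes are not reported here. The members and lists were chosen with earlier results of these data known.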

Additional observations from a re-analysis of the deposited data

Results flagged for a closer look

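GDF15 was picked out because its difference after siPPARG went opposite ways in the lines. Its log2 fold was -0.49 in Eso26 and 0.29 in OE33, with 1 library per condition. The difference between the lines was not tested, since each line gives a single value. Of the 9589 genes kept in both lines, 14.2% had counting intervals on opposite sides of 1, so the pattern is common in these tables.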

How the results depend on the processing

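No paired analysis was possible because each group has 1 sample and the labels carry no replicate numbers; cell line entered the shared fit as a term. No library could be left out, since the shared fit has 1 residual degree of freedom. The counts of members past 2-fold (1 in Eso26, 0 in OE33, 7 between the controls) were the same under the other scalings, filters and prior count run; a 1.5-fold threshold gave 2 in OE33 and 8 between the controls. The sign of CDKN1A in Eso26, whose interval included 1, turned with library totals. Scaling moved the median of all genes by at most 0.045 (log2).

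Counts over all genes depended on the filter and threshold. In Eso26, genes past 2-fold were 61 higher and 35 lower with a 1 CPM filter, 418 and 329 with no filter, and 130 and 119 at 1.5-fold, against 6 and 15 as reported, or 8 and 10 with library totals. In OE33 they were 218 and 84 with a 1 CPM filter, 868 and 590 with no filter, and 358 and 245 at 1.5-fold, against 114 and 44. Between the controls they were 3846 and 3575 without a filter, with 3083 lower at 1.5-fold, against 2407 and 1826.

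For the shared effect of siPPARG, DESeq2 called 13 genes and edgeR without a filter 64, none of them a member; limma-voom called 0. The signs of SESN1 and FAS turned in limma-voom, each with an adjusted p of 0.992. For the line, edgeR without a filter also called TP53INP1, at an adjusted p of 0.0198. The causes were not tested. Depth limits BAX and FAS in Eso26, SESN1 in OE33 and TP53INP1 in the Eso26 control, at 47 to 87 counts.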

Other observations

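The genes whose levels ran most like those of a p53 target over the 4 libraries are given by Euclidean distance of log2 CPM, centred on each gene's mean, among 11381 other genes; with 4 libraries from 2 lines, many genes lie close by. Among the nearest to BAX were CPVL (distance 0.128) and KRT15 (0.148). CPVL had 326 counts in OE33 siPPARG and 258 in the OE33 control, against 13 in Eso26 siPPARG and 14 in the Eso26 control. Nearest to ZMAT3 were PM20D2 (0.0711), ALG10 (0.0938) and ECT2 (0.0939). ECT2, a gene of cytokinesis, had 3211 counts in OE33 siPPARG against 4688 in the OE33 control, and 8144 in Eso26 siPPARG against 11067 in the Eso26 control. Nearest to TP53INP1 was RAB26, a small GTPase gene of secretory vesicles, at a distance of 0.302, with log2 folds after siPPARG of 0.99 in Eso26 and 0.11 in OE33.

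Of the 9 targets, 7 overlap another RefSeq gene, and BAX and ZMAT3 overlap none. NDUFAF6, which overlaps TP53INP1, had 434 counts in Eso26 siPPARG and 443 in the Eso26 control, while TP53INP1 had 148 and 59. ARMC2, which overlaps SESN1, had 44 counts in OE33 siPPARG and 29 in the OE33 control, and 139 in Eso26 siPPARG and 123 in the Eso26 control. ACTA2, which overlaps FAS, had 63 counts in OE33 siPPARG and 56 in the OE33 control. It had 2 in Eso26 siPPARG and 0 in the Eso26 control, the same order of the lines as FAS. Whether overlapping genes share reads was not tested.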
